A study of Mus musculus with 32 samples.

Results

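A set of 3677 distal active enhancers shared by *Kat2a* WT and *Kat2a* KO *MLL-AF9* leukemias was described by its H3K9 acetylation (H3K9ac), its location and its assigned genes. The regions were chosen by measured values, namely the presence of ChIP-seq peaks. Each is an H3K4me1 peak of *Kat2a* WT replicate 2 that overlapped an H3K27ac peak of WT replicate 2, and also an H3K4me1 and an H3K27ac peak of *Kat2a* KO replicate 2. Its centre lay more than 5 kb from every annotated transcription start site (TSS), and it overlapped no H3K4me3 peak of any library. They made up 3677 of 45770 WT H3K4me1 peaks (8.03%). H3K4me1, H3K27ac, H3K4me3 and the distance from a TSS were used in the choice, so their values are given as a description. Tests were made on H3K9ac, which the choice did not use but which was measured in the same leukemias.

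Enhancers are regulatory sequences that act on promoters from a distance. Monomethylation of histone H3 at lysine 4 (H3K4me1) marks enhancers whether or not they are in use, acetylation at lysine 27 (H3K27ac) is added at those that are active, and trimethylation at lysine 4 (H3K4me3) marks promoters. H3K9ac is found at active promoters and at many active enhancers. *Kat2a* (*Gcn5*) encodes an acetyltransferase of the SAGA and ATAC complexes that can add H3K9ac, and MLL-AF9 is a fusion oncoprotein that keeps a stem and progenitor program active in myeloid leukemia.

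The leukemias were made from *Kat2a* Flox/Flox mice treated with pIpC, which induces the Mx1-Cre transgene. *Kat2a* WT animals carried no Mx1-Cre and *Kat2a* KO animals carried Mx1-Cre, which excises *Kat2a*. Lineage-depleted bone marrow of both genotypes was given *MLL-AF9* by retrovirus and transplanted into irradiated mice, and bone marrow was taken at terminal disease. Cells of 5 WT and 4 KO leukemias were pooled by genotype, and replicates 1 and 2 were separate samples of cells from the same pools. The spread between replicates therefore does not include the spread between animals, and the peak lists do not separate leukemia cells from host marrow cells. Peak lists hold no transcript level, so the genotype labels could not be checked from them, and none of the 3677 regions was assigned to *Kat2a*.

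There were 16 ChIP-seq libraries, 4 marks with 2 replicates in each genotype. The number of crosslinked cells was 500000 for each H3K4me1 and H3K27ac library and 5000000 for each H3K4me3 and H3K9ac library. The lists give fold enrichment at the summit over local background, not read counts, so the depth of each library is unknown. The H3K9ac lists held 33605 and 31677 peaks in WT and 27657 and 28861 in KO, and between 89.1% and 96.1% of those peaks reached a q-value of 0.05 or lower. Replicate 1 of H3K4me1 and H3K27ac stood apart in both genotypes: at most 0.0485% of the peaks in each of those 4 lists reached that q-value, against 34.3% to 92.4% in replicate 2. The choice of regions used replicate 2 alone for these marks.

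Of the 45770 WT H3K4me1 peaks, 24503 lay more than 5 kb from every TSS and 23635 of these overlapped no H3K4me3 peak. WT H3K27ac was present at 4807, KO H3K4me1 at 3954 of these, and KO H3K27ac at 3677 of these. The 1130 regions with both WT marks that lacked a KO mark were used for comparison as WT-restricted distal active enhancers. Of these, 656 (58.1%) had KO H3K27ac without KO H3K4me1, 277 had KO H3K4me1 without KO H3K27ac, and 197 had neither. The name WT-restricted therefore means that a KO mark was not called, and not that H3K27ac was absent in KO. A further 14958 distal H3K4me1 regions without H3K27ac in either genotype were the other comparison. The 3 regions just inside the distance limit lay 5001.5, 5002 and 5005.5 bp from a TSS, and the 3 nearest that were left out lay 4998.5, 4994.5 and 4994.5 bp from one. The first of those left out lay beside *Egr1*, an immediate early transcription factor, and had no H3K9ac peak in WT replicate 1 and 22.9-fold enrichment in WT replicate 2, with 12-fold in KO replicate 1 and 15.8-fold in KO replicate 2.

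The sequences of 7 regions are shown because they carry the patterns described below: strong H3K9ac in every library, H3K9ac in a single genotype, the strongest H3K27ac, and the region at the leukemia gene *Meis1*. They are the plus strand of GRCm38 from RefSeq, which has the coordinates of mm10, and for regions longer than 300 bp the central 300 bp. Capitals mark exact matches on either strand to 1 of 8 searched motifs: GGAAGT for ETS factors, TTGCNNAA for C/EBP, TGTGGT for RUNX, TGANTCA for AP-1, AGATAA for GATA factors, TGACAG for MEIS, TGATTNAT for HOX-PBX and CACGTG for E-box factors. Matches of different motifs shared a base in 72 of 3677 regions (1.96%). An all-lower-case sequence held none of the 8.
*Nanos3*, H3K9ac in all libraries, chr8:84191690-84191934: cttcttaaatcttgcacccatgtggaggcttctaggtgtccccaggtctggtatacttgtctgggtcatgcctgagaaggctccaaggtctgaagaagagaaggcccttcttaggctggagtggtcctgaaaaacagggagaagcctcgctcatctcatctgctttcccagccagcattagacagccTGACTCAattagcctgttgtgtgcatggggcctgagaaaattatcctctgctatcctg
*Zfp36*, H3K9ac in all libraries and strongest H3K27ac, chr7:28385421-28385614: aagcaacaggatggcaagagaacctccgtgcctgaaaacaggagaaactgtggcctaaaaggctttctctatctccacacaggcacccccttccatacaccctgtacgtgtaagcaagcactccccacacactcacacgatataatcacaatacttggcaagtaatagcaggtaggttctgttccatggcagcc
*Bckdha*, H3K9ac in WT alone, chr7:25645939-25646102: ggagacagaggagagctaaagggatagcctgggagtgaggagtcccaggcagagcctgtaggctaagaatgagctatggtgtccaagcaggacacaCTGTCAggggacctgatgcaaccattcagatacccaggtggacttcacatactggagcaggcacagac
*Med13l*, H3K9ac in WT alone, chr5:118478937-118479236: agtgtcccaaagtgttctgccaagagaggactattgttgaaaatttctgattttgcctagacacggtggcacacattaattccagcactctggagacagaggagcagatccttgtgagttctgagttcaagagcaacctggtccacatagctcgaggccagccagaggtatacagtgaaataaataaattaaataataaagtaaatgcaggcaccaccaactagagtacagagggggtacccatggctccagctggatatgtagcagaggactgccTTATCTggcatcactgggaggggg
*Ninj2*, H3K9ac in KO alone, chr6:120083818-120083981: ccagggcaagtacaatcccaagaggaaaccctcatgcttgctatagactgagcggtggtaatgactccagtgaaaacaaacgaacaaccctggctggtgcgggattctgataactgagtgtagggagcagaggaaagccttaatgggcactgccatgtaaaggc
*Tmem189*, among the strongest H3K27ac, chr2:167753026-167753325: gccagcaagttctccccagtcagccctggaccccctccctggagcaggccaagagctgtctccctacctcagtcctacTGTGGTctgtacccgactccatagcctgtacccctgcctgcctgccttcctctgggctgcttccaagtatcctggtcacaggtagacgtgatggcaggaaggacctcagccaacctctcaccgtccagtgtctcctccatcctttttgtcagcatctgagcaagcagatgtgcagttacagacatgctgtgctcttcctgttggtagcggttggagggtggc
*Meis1*, within the gene, chr11:18925341-18925530: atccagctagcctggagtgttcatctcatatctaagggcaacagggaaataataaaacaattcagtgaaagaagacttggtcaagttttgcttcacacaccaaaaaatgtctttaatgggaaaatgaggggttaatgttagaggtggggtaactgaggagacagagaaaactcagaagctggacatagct

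The first question was how often these enhancers carried H3K9ac in each genotype. An H3K9ac peak overlapped 44.8% (1647 regions) in WT replicate 1, 70.6% (2596) in WT replicate 2, 33.6% (1234) in KO replicate 1 and 57.0% (2095) in KO replicate 2. The Wilson 95% intervals spanned 43.2 to 46.4%, 69.1 to 72.1%, 32.1 to 35.1% and 55.4 to 58.6%, and they cover counting error over regions only. Replicate 2 was the higher in both genotypes at these regions, which replicate 2 of H3K4me1 and H3K27ac had chosen. It was also the higher at WT-restricted enhancers and over all distal regions. In distal regions without H3K27ac replicate 1 was the higher, at 4.35 against 3.50% in WT and 1.96 against 1.71% in KO. The genotypes overlapped at the shared enhancers, since KO replicate 2 lay above WT replicate 1. In pooled cells, a mark in fewer cells and less of the mark per cell cannot be told apart.

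The WT libraries averaged 57.7% ± 18.2 (SD, n = 2), and the KO libraries averaged 45.3% ± 16.6 (SD, n = 2). The difference of -12.4 percentage points was smaller than the spread between replicates (two-sided exact permutation test, p = 0.667, adjusted p = 0.667 over 3 comparisons), and 2 libraries against 2 allow no p below 0.333. By replicate number, KO was lower by both pairs, by -11.2 points for replicate 1 and -13.6 points for replicate 2. The difference rested on which libraries entered it: it was 0.48 points without WT replicate 2 and -0.72 without KO replicate 1, but -25.3 without WT replicate 1 and -24.1 without KO replicate 2. The KO lists were also shorter, and with all 4 H3K9ac lists cut to the strongest peaks of equal number the difference was -7.48 points (exact permutation p = 0.667).

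H3K9ac covered 31.5% and 56.2% of the bases of the regions in WT replicates 1 and 2, and 23.3% and 43.1% in KO. The WT mean was 43.9% ± 17.4 (SD, n = 2) and the KO mean 33.2% ± 14 (SD, n = 2). The difference of -10.7 points was within the replicate spread (exact permutation p = 0.667, adjusted p = 0.667). It was 1.65 points without WT replicate 2, -0.77 without KO replicate 1, -23.0 without WT replicate 1 and -20.6 without KO replicate 2.

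**Figure D1:**
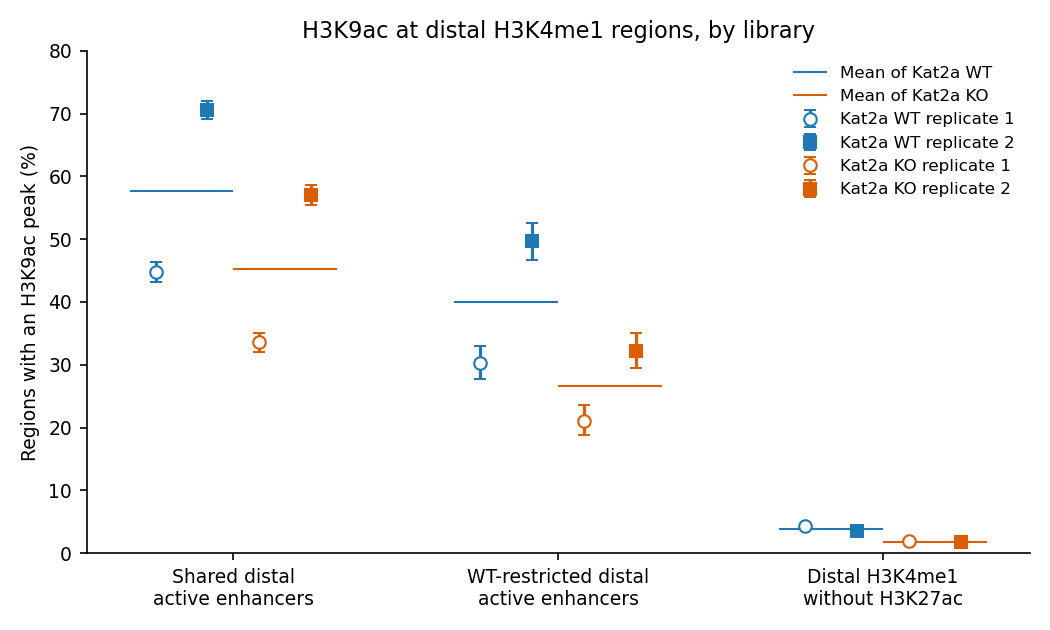
Share of regions with an H3K9ac peak (vertical axis, percent) in each of 4 libraries for the 3677 shared distal active enhancers and the 2 comparison classes. Circles are replicate 1 and squares replicate 2, error bars are Wilson 95% intervals, and horizontal lines are genotype means. In the shared class the 4 values run from 33.6% to 70.6%, above the corresponding value of the other classes in every library.

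The strength of the H3K9ac peaks was compared by rank, because fold enrichment is not scaled between libraries. The rank is the percentile of a peak's fold enrichment within its own list, with 100 the strongest. The median rank of the peaks at the shared enhancers was 45.4 and 51.9 in WT replicates 1 and 2, and 41.5 and 43.7 in KO. Both KO libraries lay below both WT libraries. The WT mean was 48.7 ± 4.61 (SD, n = 2) and the KO mean 42.6 ± 1.57 (SD, n = 2), and KO differed by -6.09 (exact permutation p = 0.333, the smallest possible, adjusted p = 0.667). With H3K9ac lists of equal length, the WT medians became 39.5 and 47.7 and the KO medians 41.5 and 43. The genotypes then overlapped and the difference was -1.39 (exact permutation p = 1). The median fold enrichment of WT replicates 1 and 2 was 3.42 and 4.77, that of KO replicates 1 and 2 was 3.64 and 4.39, and the highest values were 24.5, 29.0, 22.0 and 33.5 in the same order.

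H3K9ac was present in all 4 libraries at 810 of 3677 regions (22.0%), against 4.36% of the 23635 distal H3K4me1 regions without H3K4me3. This background includes the shared enhancers. H3K9ac was present in 3 libraries at 675 shared enhancers, in 2 at 752, in 1 at 803 and in none at 637. The regions without any H3K9ac were 17.3% of the shared enhancers and 72.6% of all distal regions. Peaks in both WT and neither KO library were found at 164 regions (4.46%, background 1.74%), and peaks in both KO and neither WT library at 24 (0.653%, background 0.275%). Split by replicate number instead, peaks in both replicate 2 libraries alone were found at 434 regions (11.8%, background 2.87%). Peaks in both replicate 1 libraries alone were found at 23 (0.626%, background 0.355%). The KO H3K9ac lists were also shorter than the WT lists. Among regions with H3K9ac in at least 1 library, the order against the background changed for the genotype-restricted patterns. All 4 libraries then made up 26.6% of the shared enhancers and 15.9% of all distal regions, WT alone 5.39% and 6.36%, and KO alone 0.789% and 1.00%.

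**Figure D2:**
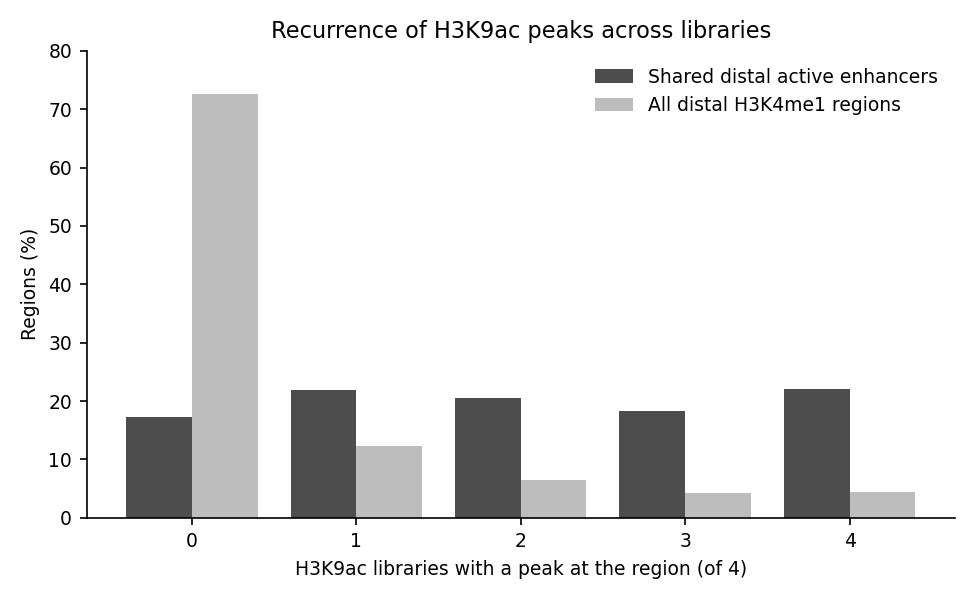
Percent of regions (vertical axis) by the number of H3K9ac libraries with a peak there (horizontal axis), for the 3677 shared distal active enhancers and all 23635 distal H3K4me1 regions. The distal regions include the shared enhancers. The shared enhancers spread over 0 to 4 libraries at 17.3% to 22.0% each, whereas 72.6% of all distal regions had a peak in none.

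Replicates differed mainly in how many regions they reached. Of the regions with H3K9ac in WT replicate 1, 88.6% also had it in WT replicate 2, and 56.2% the other way round. For KO the shares were 82.9% and 48.8%. Across genotypes, 56.8% of the WT replicate 1 regions had H3K9ac in KO replicate 1 and 78.2% in KO replicate 2. For WT replicate 2 regions the shares were 42.9% and 70.0%. Of the KO replicate 1 regions, 75.9% had it in WT replicate 1 and 90.3% in WT replicate 2. For KO replicate 2 regions the shares were 61.5% and 86.7%. At the 810 regions with H3K9ac in all libraries, the median difference in rank, KO minus WT, was -5.54 for replicate 1 and -7.13 for replicate 2. The rank was lower in KO for both replicate numbers at 364 of these (44.9%) and higher for both at 105 (13%). At all 1031 distal regions with H3K9ac in every library the median changes were -5.26 and -6.80, and 43.4% were lower for both. The 810 shared enhancers are part of these 1031 regions, so the similar values are no independent comparison. These ranks depended on the length of the lists. With the H3K9ac lists cut to equal length, 719 shared enhancers had H3K9ac in all libraries, and the median difference was 1.76 for replicate 1, with the sign turned, and -4.04 for replicate 2. Of these, 29.2% were then lower in KO for both replicate numbers and 21.3% higher for both.

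The shared enhancers carried H3K9ac more often than the WT-restricted enhancers in 4 of 4 libraries. The share in the WT-restricted class was 30.3% and 49.6% in WT and 21.1% and 32.2% in KO, and the mean difference was 18.2 ± 5.68 percentage points (SD, n = 4 libraries). In regions without H3K27ac it was 4.35% and 3.50% in WT and 1.96% and 1.71% in KO, and the mean difference was 48.6 ± 15.7 points (SD, n = 4). Both differences had the same sign in 4 of 4 libraries. A two-sided exact sign-flip permutation test gave p = 0.125 for each (adjusted p = 0.125), the smallest that 4 libraries allow. The classes were defined by H3K4me1 and H3K27ac peaks from the same pools of cells, and H3K9ac was more frequent where H3K27ac ranked higher. The test therefore cannot separate a class difference in H3K9ac from the choice of the classes. Replicates of a genotype also shared a pool, so the libraries are not independent. The KO share was 0.749 and 0.807 of the WT share at the shared enhancers by replicate number, 0.696 and 0.649 at WT-restricted enhancers, 0.450 and 0.489 at regions without H3K27ac, and 0.654 and 0.728 at all distal regions. These ratios are lower than 1 in each class and were not compared by a test. WT-restricted enhancers lack a called KO mark by choice, so their lower ratio than at the shared enhancers is not independent of that choice.

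Within the shared enhancers, H3K9ac was more frequent at regions of higher H3K27ac rank. The choice used the presence of H3K27ac and not its rank. The regions were split into quartile groups by the mean H3K27ac rank of WT and KO replicate 2. From the lowest to the highest group the share with H3K9ac in WT went from 27.1 to 66.4% for replicate 1 and from 50 to 91.4% for replicate 2. In KO it went from 16.7 to 55.6% for replicate 1 and from 30.7 to 83% for replicate 2. H3K9ac in all 4 libraries went from 6.09 to 46.0% and H3K9ac in none from 34.0 to 3.81%. KO was below WT of the same replicate number in every group. By quartiles of the mean H3K4me1 rank of WT and KO replicate 2 the shares moved much less. For example, they went from 52.7 to 61.5% for KO replicate 2 and from 44.1 to 47.9% for WT replicate 1. By quartiles of region width, WT replicate 1 went from 44.3 to 48.1% and KO replicate 2 from 54.4 to 63.7%. These shares describe regions within libraries and were not tested.

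**Figure D3:**
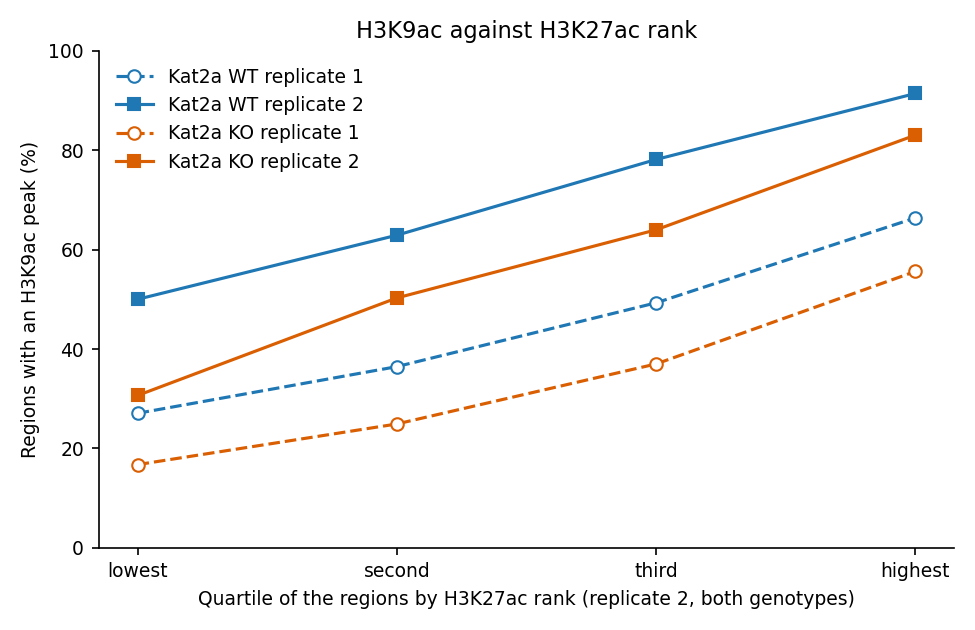
Share of the shared distal active enhancers with an H3K9ac peak (vertical axis, percent) in quartile groups of the regions by H3K27ac rank (horizontal axis), with 1 line per library. Each line rises from the lowest to the highest group, from 16.7% to 55.6% in the lowest library and from 50% to 91.4% in the highest.

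The marks used in the choice had higher fold enrichment and rank in the KO lists than in the WT lists, but the KO lists were longer. The replicate 2 lists held 45770 H3K4me1 peaks in WT and 78042 in KO, and 29757 H3K27ac peaks in WT and 46047 in KO. The WT H3K4me1 value is that of the defining peak, and the other values are those of the strongest overlapping peak. The genotypes were not compared by a test here. The H3K4me1 peaks of WT that define the regions had a median width of 266 bp and a median fold enrichment of 3.72 (range 1.91 to 7.75), against 3.67 in the whole list, and the q-value was 0.05 or lower for 50% of them. The overlapping KO H3K4me1 peaks had a median of 4.22-fold (whole list 3.43) and 883 bp, WT H3K27ac 4.59-fold (4.31) and 675 bp, and KO H3K27ac 6.38-fold (4.12) and 1420 bp. The median ranks within the lists were 65.5 for WT H3K4me1, 82.0 for KO H3K4me1, 55.6 for WT H3K27ac and 75.6 for KO H3K27ac. Because these peaks were wider, neighbouring regions shared them: the 3677 regions met 3020 different KO H3K4me1 peaks, 2998 WT H3K27ac peaks and 2709 KO H3K27ac peaks. They met 1440 and 2082 different strongest H3K9ac peaks in WT and 1103 and 1777 in KO. Regions of a locus are therefore not independent of each other.

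By the position of its centre in GENCODE M21, 2081 regions (56.6%, Wilson 95% interval 55.0 to 58.2%) lay in introns, 149 (4.05%) in exons and 1447 (39.4%) outside genes. The corresponding intron share was 53.4% of WT-restricted enhancers and 58.1% of regions without H3K27ac. The median distance to the nearest TSS was 12125.5 bp, with quartiles of 7804.5 and 21172.5 bp and a maximum of 327864 bp. It was 13368 bp for WT-restricted enhancers and 14520.2 bp for regions without H3K27ac. Only 178 shared enhancers (4.84%) lay beyond 50 kb, against 9.85% of regions without H3K27ac. H3K9ac in all 4 libraries was found at 23.0% of the 1400 regions within 10 kb, 22.2% of the 2099 between 10 and 50 kb and 11.8% of the 178 beyond 50 kb. It was found at 23.5% of intronic, 21.5% of exonic and 20% of intergenic regions.

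Many regions lay in groups. With gaps of up to 10 kb they formed 1962 clusters, of which 1143 held 1 region, 699 held 2 to 4 and 120 held 5 or more. The 120 largest clusters held 802 regions (21.8%), and the largest held 18. H3K9ac in all 4 libraries was found at 15.7% of lone regions, 22.0% of regions in clusters of 2 to 4 and 31.2% of those in clusters of 5 or more. There were 1.35 regions per Mb over the chromosomes used. Chromosome 11 had the highest density (309 regions, 2.53 per Mb), and chromosome X held 5 regions (0.0292 per Mb), which were 2.45% of its 204 distal H3K4me1 regions against 15.6% over all chromosomes. The X-linked regions were assigned to *Il13ra1* (2), an interleukin receptor chain, *Elf4* (2), an ETS factor, and *Pbdc1* (1); these genes were named after their counts had been seen.

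Each region was assigned to the protein-coding gene with the nearest TSS. Of 21911 genes, 1502 (6.86%) received at least 1 region, 721 of them exactly 1, and 35 received 10 or more. Those with most regions included *Zmiz1* (28 regions), a transcriptional coregulator of the PIAS-like family; *Tomm20* (24), a receptor of mitochondrial protein import; *Irf2bp2* (23), a corepressor that binds IRF2; *Zfp36l2* (22), which binds AU-rich elements and promotes mRNA decay; and *Tmem189* (20), an enzyme of plasmalogen synthesis. They also included the ETS family transcriptional repressor *Etv6* (19), the cell cycle kinase *Cdk6* (16) and the serine/threonine kinase *Stk10* (15). *Myh9*, the heavy chain of non-muscle myosin IIA, had 14.

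Proximity does not show which gene an enhancer acts on, and the counts depended on the assignment. With the nearest TSS of any gene, non-coding genes included, *Tomm20* and *Etv6* had 0 regions, *Zfp36l2* and *Tmem189* 1 each, *Irf2bp2* 5, *Cdk6* 10 and *Zmiz1* 14. Within their own gene bodies *Tomm20*, *Irf2bp2* and *Zfp36l2* had 0. At *Tmem189*, the next nearest gene for 19 of 20 regions was *Cebpb*, a leucine zipper factor of myeloid cells, whose TSS was a median of 0.907 kb farther away. At *Stk10* the next gene was *Efcab9* for all 15 regions, a median of 1.22 kb farther away, although all 15 lay within *Stk10*. At *Zmiz1* and *Etv6*, by contrast, the next genes were 161 and 163 kb farther, and all 28 and all 19 regions lay inside the assigned gene. The 16 regions of *Cdk6* and 11 of the 14 of *Myh9* also lay within the gene. The regions of *Tomm20* and *Irf2bp2* neighboured each other: all 47 fell within 345 kb of chromosome 8 (chr8:126584859-126930081). In the same way the 20 regions of *Tmem189* and 13 of *Ptpn1*, a tyrosine phosphatase, fell within 293 kb of chromosome 2 (chr2:167650184-167943659).

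**Figure D4:**
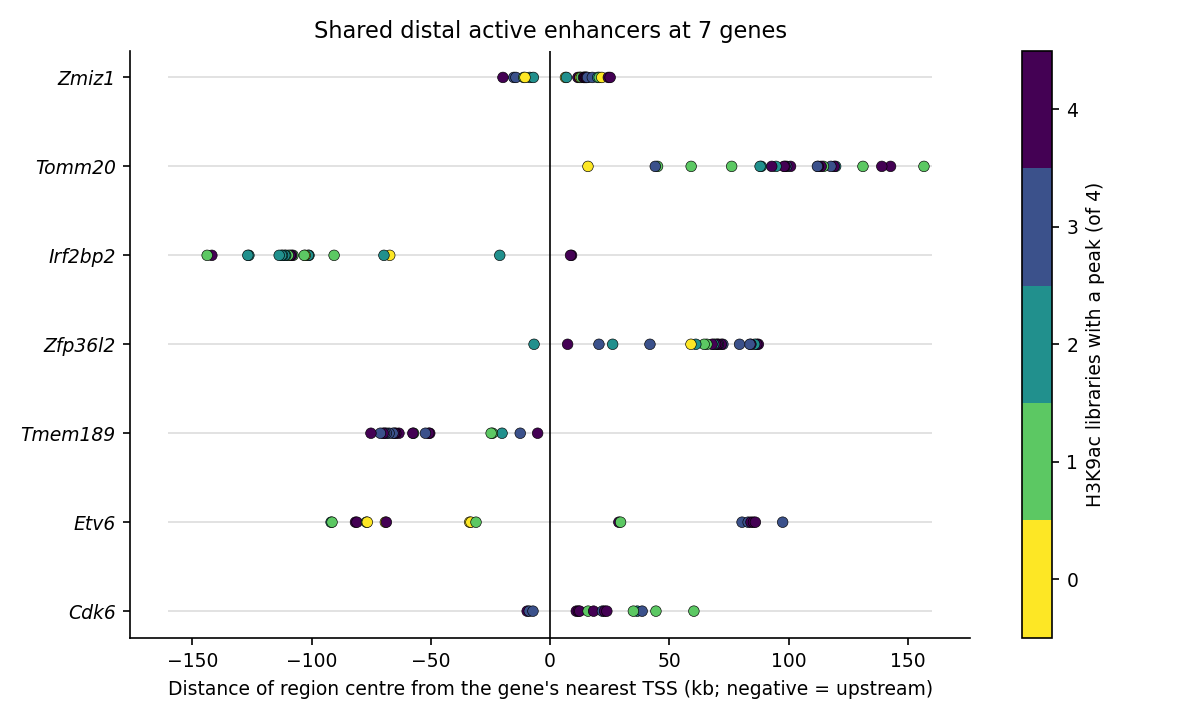
Position of the shared distal active enhancers around the nearest TSS of each of 7 genes with many of them (horizontal axis, kb, negative upstream), with 1 point per region coloured by the number of H3K9ac libraries with a peak. The regions of *Tmem189* and 21 of the 23 of *Irf2bp2* lie upstream, and the 24 of *Tomm20* lie downstream.

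H3K9ac at these genes was counted per library. At *Zmiz1* it was present at 17 and 22 of 28 regions in WT replicates 1 and 2, and at 18 and 17 in KO, with 12 regions in all 4 libraries and 4 in none. At *Tmem189* it was present at 15 and 20 of 20 regions in WT and at 12 and 15 in KO, so that no region lacked it throughout. At *Cdk6* the counts were 11 and 14 of 16 in WT and 8 and 13 in KO. At *Etv6* they were 9 and 14 of 19 in WT and 9 and 11 in KO. At *Stk10* they were 6 and 13 of 15 in WT and 4 and 8 in KO, and at *Myh9* 10 and 12 of 14 in WT and 7 and 13 in KO. *Irf2bp2* had more in KO for both replicate numbers, with 6 and 16 of 23 in WT and 7 and 18 in KO. Of the 35 genes with 10 or more regions, 21 had fewer regions with H3K9ac in KO for both replicate numbers, 1 (*Irf2bp2*) had more for both, and 13 were mixed or equal. Regions at a gene share peaks, so these counts were not tested. The KO H3K9ac lists were also shorter, and over all distal regions the KO share was 0.654 and 0.728 of the WT share by replicate number.

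**Figure D5:**
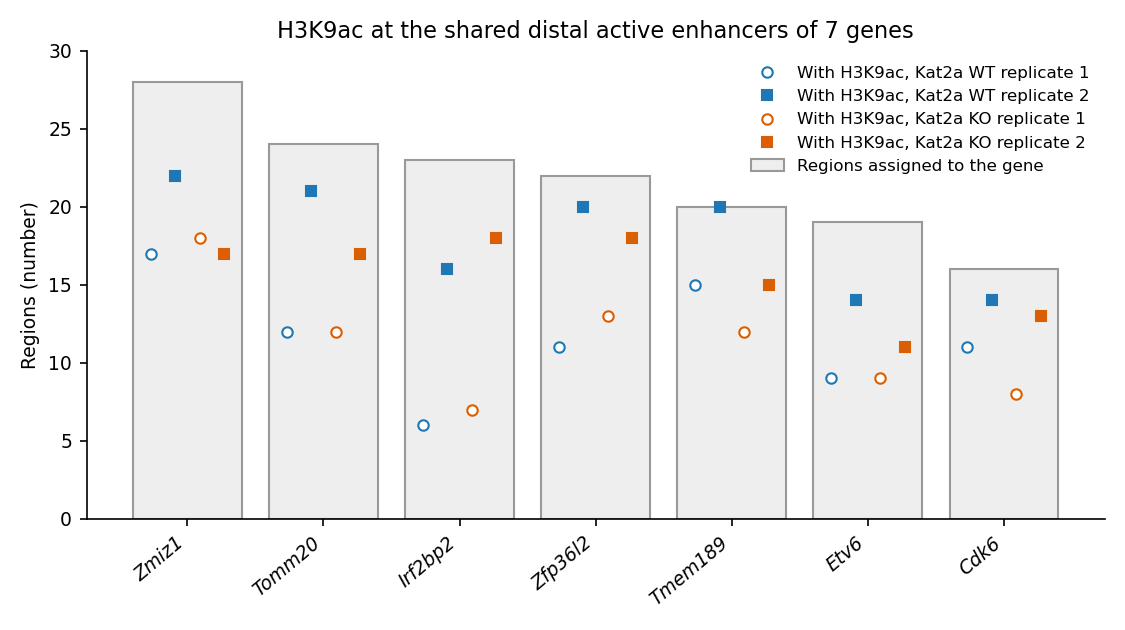
Number of shared distal active enhancers assigned to each of 7 genes with many (grey bars) and number of them with an H3K9ac peak in each library (points, circles for replicate 1 and squares for replicate 2). The genotypes overlap at most genes, with *Zmiz1* holding 28 regions and *Cdk6* 16.

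Genes of the myeloid and stem cell programs were described from lists. Of 20 transcription factors of the myeloid lineage, 9 had a region (45.0%, against 6.86% of all protein-coding genes), with 40 regions in all and 7.12 per Mb against 1.35. The median number of regions per gene was 0 in every list, as over all protein-coding genes. *Runx3* had 10, *Runx1*, the core binding factor of definitive hematopoiesis, 9, *Maf* 6, *Zeb2* 5 and *Spi1*, which encodes PU.1, 4. At *Runx1* H3K9ac was present at 6 and 6 of 9 regions in WT and at 4 and 7 in KO. At *Spi1* it was present at 2 and 3 of 4 in WT and at 2 and 4 in KO. *Runx3* had 4 and 6 of 10 in WT and 1 and 4 in KO, and 4 of its regions had no H3K9ac in any library.

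Of 20 stem and progenitor transcription factors, 9 had a region (45.0%, against 6.86% of all protein-coding genes). The list held 46 regions, 7.11 per Mb against 1.35 over all genes. Besides *Etv6*, *Erg*, an ETS factor needed for stem cell maintenance, had 13, *Fli1*, a related factor, and *Lmo2*, a bridging factor of hematopoietic transcription complexes, 4 each, and *Ikzf1*, the lymphoid regulator Ikaros, 2. The 13 regions of *Erg* were intronic and lay 7169.5 to 43461 bp from a TSS, and H3K9ac was present at 9 and 12 of them in WT and at 7 and 8 in KO. *Lmo2* had H3K9ac at 4 and 3 of 4 regions in WT and at all 4 in both KO libraries. *Fli1* had it at 2 and 3 of 4 regions in WT and at 0 and 3 in KO.

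Of 18 target genes of MLL-AF9 and other MLL fusions, 6 had a region (33.3%, against 6.86% of all protein-coding genes). The list held 30 regions, 2.92 per Mb against 1.35 over all genes, and most were assigned to *Cdk6* and *Runx2*. Besides *Cdk6*, *Runx2*, a RUNX factor, had 10 regions, all within the gene, with H3K9ac at 4 and 8 in WT and at 2 and 4 in KO. *Jmjd1c*, *Mecom* and *Meis1* had 1 each. The *Meis1* region lay in an intron 86566.5 bp from the TSS of this HOX cofactor, and had H3K9ac in WT replicate 2 (3.48-fold) and KO replicate 2 (2.81-fold) and in neither replicate 1. *Hoxa9*, a homeobox factor of MLL leukemia, and *Myc*, a growth regulator, had none. A count of 0 here means that no region was nearest to the TSS of the gene.

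Of 20 granule and effector genes, 5 had a region (25%, against 6.86% of all protein-coding genes). The list held 17 regions, 23.7 per Mb against 1.35 over all genes. Of these, *Itgb2*, which encodes the common chain of leukocyte integrins, had 10, and *Itgam*, its partner CD11b, 3. The granule protein genes *Mpo*, *Elane*, *Prtn3*, *Ctsg* and *Ltf* had none. *Itgb2* had H3K9ac at 7 and 9 of 10 regions in WT and at 5 and 8 in KO. *Ly6c2*, a monocyte surface antigen, had 2, and *Cd14*, a lipopolysaccharide receptor, and *S100a8*, a calcium-binding protein of granulocytes, 1 each. Of 18 hematopoietic cytokine receptors, 6 had a region (33.3%), 23 in all and 10.5 per Mb. They were led by the TNF receptor *Tnfrsf1b* (12), the interferon gamma receptor *Ifngr1* (5) and the GM-CSF receptor *Csf2ra* (3), with *Csf3r* and *Tgfbr2* at 1. Of the 12 regions of *Tnfrsf1b*, 6 lay in the body of its neighbour *Tnfrsf8*, and H3K9ac was present at 6 and 11 in WT and at 4 and 5 in KO. Of the markers of other cell types, 0 of 10 erythroid and megakaryocytic, 0 of 10 T and NK cell, 0 of 10 B cell and 0 of 10 non-hematopoietic genes had a region. With 6.86% of all protein-coding genes having one, lists of 10 genes are too short for a count of 0 to differ from that background. Of 75 cytosolic ribosomal protein genes 1 had a region, *Rpl5* with 2, both within *Fam69a*.

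Single regions showed the patterns at their clearest. The highest mean H3K9ac rank over all 4 libraries was at a region of 245 bp upstream of *Nanos3*, an RNA-binding protein of germ cells, at chr8:84191690-84191934, with 17.2- and 25.2-fold enrichment in WT replicates 1 and 2 and 17.5- and 28.0-fold in KO. It was followed by a region in an exon of *Casz1*, a zinc finger factor, at 23.7- and 19.0-fold in WT and 16.5- and 20.9-fold in KO. A region 5264.5 bp upstream of *Zfp36*, which encodes the mRNA decay factor tristetraprolin, had 12.9- and 29.0-fold in WT and 14.2- and 33.5-fold in KO. It lay within the gene model *Gm44710* and was also the first by H3K27ac, at 19.1-fold in WT and 21.4-fold in KO. The next was assigned to *Cstad*, at 14.9- and 18.8-fold in WT and 22.0- and 15.8-fold in KO. It was followed by a region assigned to *Plekho2*, at 11.5- and 21.2-fold in WT and 15.0- and 19.7-fold in KO. These regions were picked for high H3K9ac in all 4 libraries, and fold enrichment is not scaled between libraries. The values are therefore a description and give no genotype comparison.

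Among the 164 regions with H3K9ac in both WT libraries alone, the first by rank were 2 neighbours in an intron of *Bckdha*, a subunit of branched-chain keto acid dehydrogenase. They shared their H3K9ac peaks, at 5.64- and 10.9-fold in WT, and had none in KO. H3K27ac at both was 8.23-fold in WT and 7.89-fold in KO. A region 81592.5 bp upstream of *Med13l*, a Mediator subunit, had H3K9ac at 4.56- and 9.08-fold in WT and none in KO. An intron of *Gda*, guanine deaminase, had 6.24- and 6.30-fold in WT, and a region upstream of *Baz1a*, a chromatin remodelling subunit, 3.86- and 9.88-fold. These values gave the order and are a description.

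Of the 24 regions with H3K9ac in both KO libraries alone, the first by rank lay 9450.5 bp upstream of *Ninj2*, a cell adhesion protein, with 5.07- and 4.64-fold in KO and none in WT. A region in an intron of *Iqgap1*, a cytoskeletal scaffold, had 3.78- and 5.57-fold. A region in the bodies of *Cdk17*, a kinase, and *Elk3* had 4.81- and 4.15-fold. A region nearest to the homeobox gene *Nkx6-2*, in an intron of *Inpp5a*, had 3.51- and 4.76-fold, and a region beside *Wrnip1* 3.61- and 4.64-fold.

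The strongest H3K27ac outside *Zfp36* was at 4 neighbouring regions upstream of *Tmem189*, at -63353.5 to -65864.5 bp from its nearest TSS, which met the same H3K27ac peaks, at 15.5-fold in WT and 18.6-fold in KO. The first of these, at chr2:167752851-167753500, had H3K9ac at 5.21- and 9.36-fold in WT and 5.31- and 9.35-fold in KO. The last of them had H3K9ac at 5.21- and 10.7-fold in WT and in KO only in replicate 2, at 2.60-fold.

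In GC content the shared enhancers lay between the other distal classes and promoters. The median GC content of the 300 bp around the centre was 49.3%, against 47.7% in WT-restricted enhancers, 46.0% in regions without H3K27ac and 52.7% in the 300 bp promoter windows of RefSeq. It was 51.0% at regions with H3K9ac in all libraries and 48.0% at those with none. The median number of CpG was 3 in the shared enhancers and in both other distal classes, against 7 in promoters. The MEIS motif was found in 25.1% of the shared enhancers, 20.9% of WT-restricted enhancers, 22.2% of regions without H3K27ac and 19.2% of promoters. The RUNX motif was found in 23.7%, 24.5%, 25% and 16.8% of these classes in turn, the ETS motif in 22.2%, 24.8%, 24.9% and 23.8%, and the C/EBP motif in 11.8%, 13.3%, 15.7% and 10.8%. The AP-1 motif was found in 9.33%, 10.9%, 9.67% and 7.81%, the GATA motif in 12.8%, 13.5%, 15.8% and 11.2%, the HOX-PBX motif in 3.48%, 3.89%, 4.19% and 3.22%, and the E-box in 4.51%, 5.58%, 4.43% and 7.15%. Between regions with H3K9ac in all libraries and in none, the shares were 26.4% and 25.1% for MEIS, 23.7% and 24.3% for RUNX and 11.7% and 13% for C/EBP. These are exact letter matches, not sites of binding, and no difference between classes was tested.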

How the data were processed

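Reads of each ChIP-seq library were mapped to mm10 by the authors using BWA, and MACS2 was run per library to find peaks; the versions are not given in the sources used here. The deposited lists hold the fold enrichment at the summit (a ratio), −log10 p and −log10 q, and a score, which is −log10 p multiplied by 10. Only the fold enrichment, −log10 p and −log10 q were used. The methods name a q-value of 0.05, but the deposited lists reach a peak p-value of 0.01. No list holds read counts, so depth is unknown. Input libraries were not analysed here.

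Positions were set against GENCODE M21, and sequences were read from RefSeq GRCm38. An overlap of 1 bp counted. Region classes, ranks and gene assignments were computed in Python 3.11.15 with numpy 2.4.6, and figures were drawn with matplotlib 3.10.9. Genotypes were compared over libraries with two-sided exact permutation tests (scipy 1.17.1), never over regions, with Benjamini-Hochberg adjustment over 3 comparisons. The 2 class comparisons used exact sign flips. Wilson intervals are at 95%. Overlaps matched bedtools 2.31.1 in 100 of 100 simulated sets, and planted regions were recovered in 20 of 20.

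The regions and gene lists were chosen with earlier results of these data known. Genes were named by rule: the 10 with most regions, up to 5 of each list, *Kat2a*, *Hoxa9*, *Meis1* and *Myc*, and the 5 first regions by H3K9ac rank in all libraries, in WT alone and in KO alone, and by H3K27ac rank. Exceptions are named in the text: *Egr1*, *Ptpn1*, the genes on chromosome X, the next nearest genes and the granule genes without a region were chosen after their values were seen. A gene that the rule names is not reported here, and the gene plots show the first 7. Alternatives were another q-value, overlap, distance, TSS set, H3K4me3 rule, list length, unit of region, clustering and gene assignment, and leaving out each H3K9ac library.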

Additional observations from a re-analysis of the deposited data

Results flagged for a closer look

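Replicate 1 of H3K4me1 and H3K27ac, which the choice of regions did not use, was looked up at the shared enhancers. WT H3K27ac replicate 1 had a peak at 96 of them (2.61%), against 0.341% of distal regions without H3K27ac and 0.808% of all distal regions. WT H3K4me1 replicate 1 had a peak at 167 (4.54%), against 1.07% and 1.99%, and KO H3K4me1 replicate 1 at 46 (1.25%), against 0.709% and 0.850%. KO H3K27ac replicate 1 had a peak at 3 (0.0816%), against 0.0468% and 0.0465%. Nearly all peaks in these lists lie above a q-value of 0.05, and the rates give no genotype comparison.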

How the results depend on the processing

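The number of regions depended on the definition: 1634 with a q-value of at most 0.05 in every list, 2277 beyond 10 kb, and 1962 as clusters within 10 kb. In each of the 10 other definitions and list settings tried, the H3K9ac differences between genotypes and between classes kept their direction and their side of the threshold, which 2 libraries against 2, or 4, cannot pass. Cutting the lists to equal length moved the genotype difference to -7.41 points (share), -7.79 (covered bases) and -1.15 (rank) for all lists, and to -7.48, -7.48 and -1.39 for the H3K9ac lists alone, an alternative chosen after seeing the data. Covered bases differed by -7.02 points over clusters.

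Leaving out each library in turn gave -25.3 to 0.48 points for the share, -23.0 to 1.65 for covered bases and -9.35 to -2.83 for the rank, and the first 2 reversed without WT replicate 2 (0.48 and 1.65). The class differences were 16.0 to 20.1 and 42.4 to 54.3 points. With the replicate number as a block, the paired differences were -12.4, -10.7 and -6.09 with an exact permutation p = 0.5 each, the smallest possible for 2 pairs. Of 120 gene counts under other settings, 43 moved by over 1.5 times. By gene body *Tomm20*, *Irf2bp2* and *Zfp36l2* had 0 regions and *Tmem189* 1, against 28 for *Zmiz1*, 19 for *Etv6* and 16 for *Cdk6*. Unknown depth limits every absence of a peak.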
